A study of Danio rerio with 12 samples.

Results

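The apolipoprotein genes are described here across 6 groups of adult zebrafish heart tissue, from WT and *nr2f1a* mutant fish. The 10 members (*apoea*, *apoeb*, *apoa1a*, *apoa1b*, *apoa2*, *apoa4a*, *apoc1*, *apoc2*, *apobb.1* and *apoba*) were chosen by name from the 22158 genes of the deposited count table. The choice was made with measured values in view, because *apoea* was known to be among the largest losses in the mutant sinus venosus (SV). All 10 members passed the filter on low counts, as did 19145 genes in all.

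RNA of dissected tissue was measured by bulk RNA-seq in 12 libraries, 2 for each of 6 groups. The groups were the SV of fish with the *aco* allele of *nr2f1a*, a gene for a nuclear receptor of the COUP-TF family in which this allele lacks a stretch of the 5′ untranslated region, the WT SV, the WT bulbus arteriosus (BA), the WT atrium, the *nr2f1a* *aco* mutant ventricle and the WT ventricle. Tissue of 20 adults, whose ages lay between 6 months and 1.5 years, was pooled for each library, so that single fish cannot be compared. The SV is the venous inflow to the atrium, and the BA is the outflow vessel of the ventricle.

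Apolipoproteins are the protein parts of the particles that carry triglycerides and cholesterol in plasma. ApoB forms the scaffold of the triglyceride-rich particles that liver and intestine secrete, ApoA proteins build high-density lipoprotein or accompany fat absorption, and ApoC and ApoE proteins on the particle surface act on lipases and receptors. Liver and intestine are the best known sources in vertebrates, and ApoE is also made by macrophages and glia. The heart is mainly known as a consumer of the fatty acids that these particles deliver.

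Library totals ranged from 28325098 to 60532949 counts, and 1 read corresponded to 0.0229 to 0.0294 CPM, the read count per library size after scaling with TMM factors. Replicates of every group differed by more than sampling noise. A group with at most 3 counts in each library was taken to be at the floor, and intervals on its ratios cover counting error only. In 4 libraries, replicate 1 of the mutant SV, the WT atrium, the mutant ventricle and the WT ventricle, genes with a count of 2 made up only 17.7% to 28.03% of the number with a count of 1, against 64.4% to 99.9% in the other 8. The low values of these 4 libraries may thus not be plain read tallies, and the cause was not tested. The *nr2f1a* transcript was present in mutants, at 13.1 and 24.6 CPM in the mutant SV against 17.9 and 9.67 CPM in the WT SV, and it therefore gives no check of the mutant labels. A list of 8 cardiomyocyte genes summed to 369 to 2142 CPM in the 4 SV libraries and to 23272 to 81030 CPM in the atrial and ventricular libraries.

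**Figure D1:**
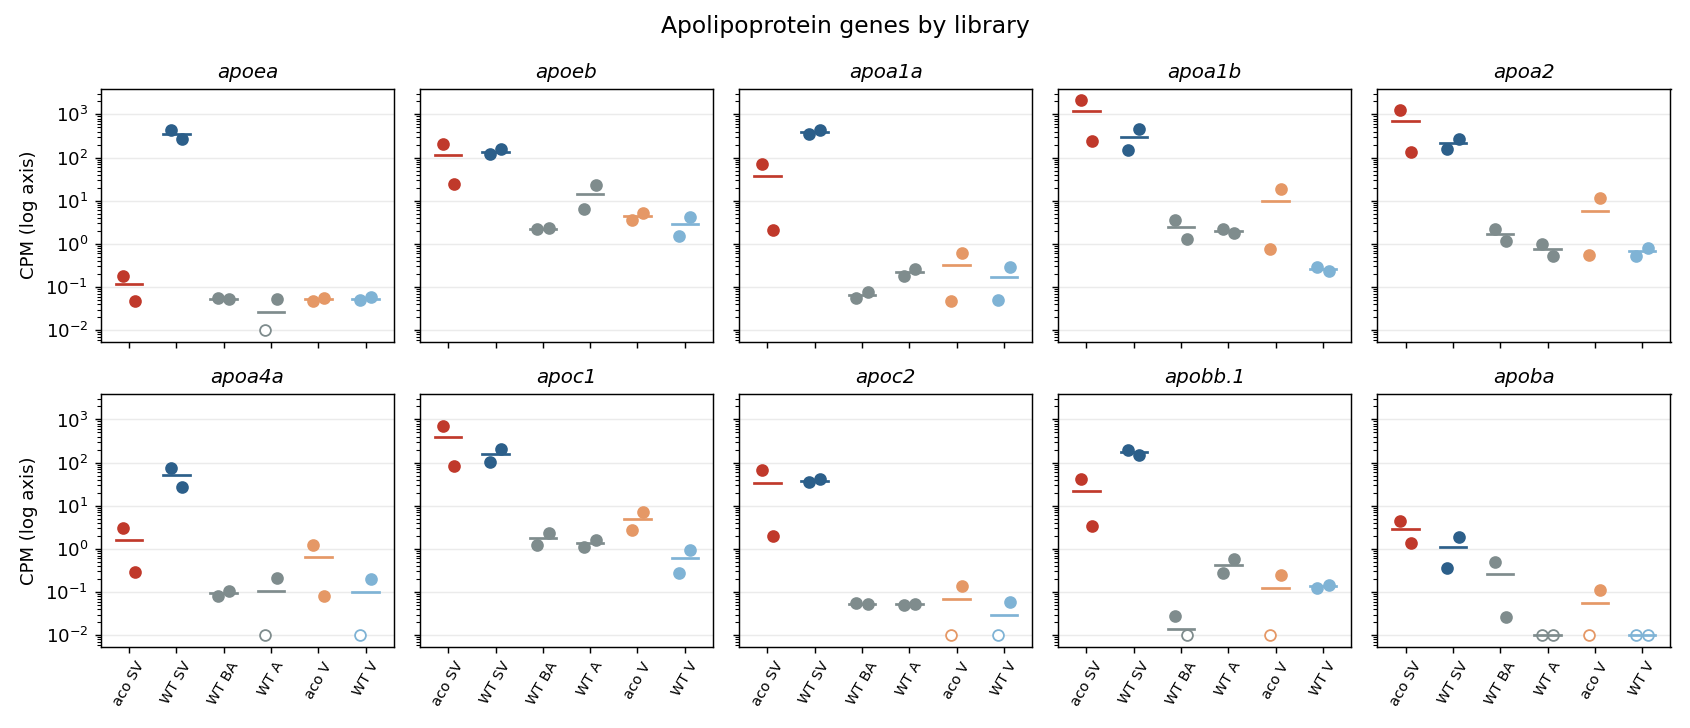
CPM of the 10 apolipoprotein genes in each library on a log axis, with mutant (aco) and WT groups along the x axis, points for the 2 libraries of a group, bars for their mean and open circles drawn at 0.01 for libraries with no count. In the WT SV *apoea* stands at 431 and 274 CPM while no other group exceeds 0.183 CPM, and *apoa1b*, *apoa2* and *apoc1* are high in both SV groups.

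Among the WT libraries, apolipoprotein transcripts were concentrated in those of the dissected SV. The 10 members together took 0.197% and 0.233% of all counts in the WT SV, against at most 0.00235% in any library of the WT BA, atrium or ventricle. For 9 of the 10 members both WT SV libraries lay above every library from outside the SV, as was the case for 14.2% of all genes tested, and the exception was *apoba*. These 9 members and the shares of counts include *apoea*, which was chosen on its SV values, so its part in them is no support. They also include *apoa1a*, *apoa4a*, *apoc2* and *apobb.1*, which passed the filter on low counts through the SV libraries. A place above the libraries outside the SV was thus favoured in advance for these genes and is a description rather than support. *apoea* supplied 18851 of the 71191 member counts in replicate 1 of the WT SV and 11746 of 87292 in replicate 2. In the mutant SV the members took 0.697% of counts in replicate 1 and 0.0660% in replicate 2. In bulk tissue, fewer cells of a type and less RNA per cell cannot be told apart. Both WT SV libraries also held reads of other organs' marker genes, described below. All 17 enterocyte, 15 hepatocyte and 14 exocrine pancreas genes of these lists were above 3 counts there. The part of such tissue in the apolipoprotein values was not tested.

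Between genes, levels were compared as FPKM, the authors' counts per length and depth. In the WT SV *apoea* had 429 and 260 FPKM, *apoa2* 251 and 409 FPKM, *apoa1b* 136 and 400 FPKM, *apoa1a* 196 and 234 FPKM and *apoc1* 142 and 264 FPKM. *apoa1a* lay below *apoea* and *apoa2* in both libraries, and the other pairs among these 5 genes overlapped. Lower levels were seen for *apoeb* with 77.7 and 96.2 FPKM, *apoa4a* with 74.4 and 26.6 FPKM, *apoc2* with 46.2 and 53.2 FPKM, *apobb.1* with 18.3 and 13.4 FPKM and *apoba* with 0.0287 and 0.142 FPKM. The order differed in the mutant SV, where *apoa2* had 2102 and 202 FPKM and *apoa1b* 1951 and 207 FPKM, whereas *apoea* had 0.186 and 0.0451 FPKM, the lowest of the 10 genes in each mutant SV library.

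The ApoE genes encode ligands for receptors of the low-density lipoprotein receptor family, and zebrafish have the copies *apoea* and *apoeb*. Replicates 1 and 2 had 8 and 2 reads of *apoea* in the mutant SV (0.183 and 0.0481 CPM), against 18851 and 11746 reads in the WT SV (431 and 274 CPM). The 8 libraries of the BA, atrium and ventricles had 0 to 2 reads each, so that the WT SV was the only group above 8 reads in any library. The fitted log2 fold change of *apoea* in the mutant over the WT SV was -12.03 ± 0.69 (SE), and it lay between -12.74 and -10.92 under each alternative tried. These are the values that chose the gene and they were not tested. The ratio of summed reads per depth between the WT SV and other WT tissue was 6639 for the BA (95% counting interval 2593 to 24368), 13641 for the atrium (3776 to 112642) and 6599 for the ventricle (2577 to 24221), and these ratios are likewise a description.

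*apoeb* differed from its copy in this respect. It had 203 and 24.7 CPM in the mutant SV against 119 and 154 CPM in the WT SV, so that the mutant libraries lay on both sides of the WT range. The atrium had 6.36 and 22.7 CPM, the mutant ventricle 3.63 and 5.29 CPM, the WT ventricle 1.55 and 4.11 CPM and the WT BA 2.18 and 2.29 CPM. Within a library, the ratio of *apoea* to *apoeb* counts does not depend on scaling between libraries, and it was 0.000903 and 0.00195 in the mutant SV against 3.63 and 1.78 in the WT SV. *apoeb* was thus the more abundant copy in both mutant SV libraries and the less abundant one in both WT SV libraries on the FPKM scale, which corrects for gene length.

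ApoA-I is the main structural protein of high-density lipoprotein, and the zebrafish copies again differed in the mutant SV. *apoa1a* had 70.9 and 2.12 CPM in the mutant SV against 356 and 444 CPM in the WT SV, and the groups did not overlap. *apoa1b* had 2118 and 243 CPM in the mutant SV against 150 and 463 CPM in the WT SV, and the groups overlapped. The count ratio of *apoa1a* to *apoa1b* was 0.0335 and 0.00871 in the mutant SV against 2.37 and 0.959 in the WT SV, without overlap. Outside the SV, *apoa1a* reached at most 0.603 CPM and *apoa1b* 19.02 CPM, both in replicate 2 of the mutant ventricle.

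*apoa2*, which encodes a second protein of high-density lipoprotein, and *apoc1*, whose product slows receptor uptake of lipoproteins in mammals, behaved like *apoa1b*. *apoa2* had 1294 and 135 CPM in the mutant SV against 157 and 269 CPM in the WT SV. *apoc1* had 719 and 83.6 CPM in the mutant SV against 105 and 205 CPM in the WT SV. In all 3 genes replicate 1 of the mutant SV lay above both WT libraries and replicate 2 did not. The ratio of *apoc1* to *apoa1b* counts was 0.340 and 0.344 in the mutant SV against 0.698 and 0.442 in the WT SV, so these genes moved together between the mutant libraries, whose *apoa1b* levels stood 8.70-fold apart.

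*apoa4a* encodes an ApoA-IV, a protein that the intestine of mammals secretes during fat absorption. It had 2.9997 and 0.289 CPM in the mutant SV against 74.1 and 27.8 CPM in the WT SV, with no overlap. *apoc2* encodes the cofactor that lipoprotein lipase requires, and it had 65.7 and 2.02 CPM in the mutant SV against 34.8 and 41.9 CPM in the WT SV. Here the mutant libraries lay on opposite sides of the WT libraries, 32.5-fold apart.

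The ApoB genes encode the large scaffold protein of which each very low-density lipoprotein and chylomicron carries a single copy. *apobb.1* had 41.2 and 3.37 CPM in the mutant SV against 201 and 154 CPM in the WT SV, without overlap. *apoba* was low throughout, with 4.44 and 1.396 CPM in the mutant SV against 0.366 and 1.89 CPM in the WT SV, and no read in any atrial or ventricular library of WT fish. On the FPKM scale *apobb.1* exceeded *apoba* in every SV library, and the ratio of their counts was 9.27 and 2.41 in the mutant SV against 548 and 81.5 in the WT SV.

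**Figure D2:**
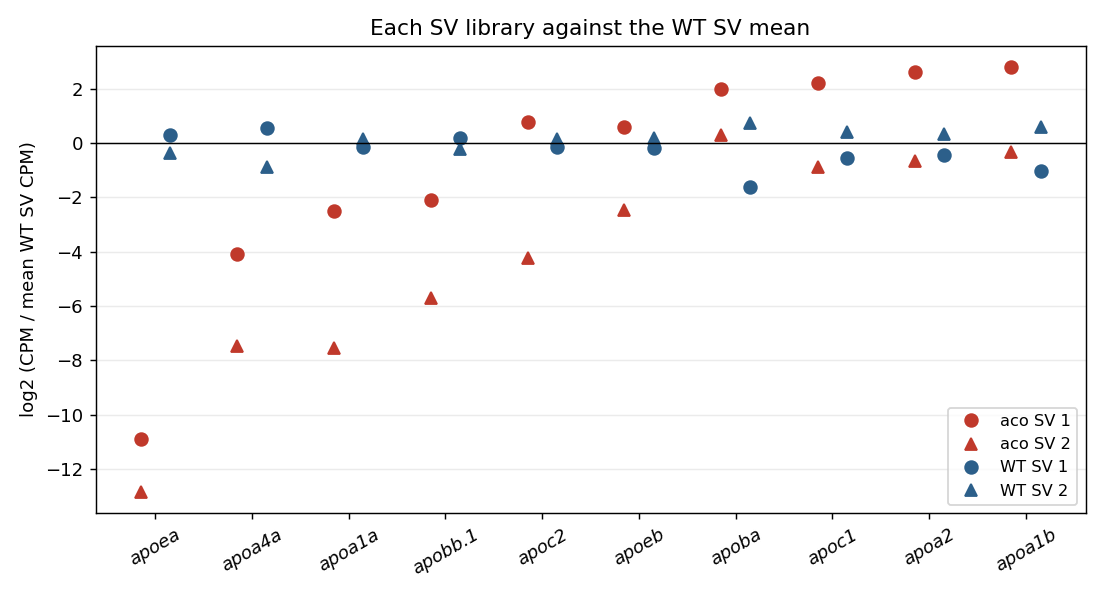
Log2 ratio of the CPM in each SV library to the mean of the 2 WT SV libraries for each gene, mutant (aco) libraries to the left in red and WT libraries to the right in blue, with circles for replicate 1 and triangles for replicate 2. Both mutant libraries lie below both WT libraries for *apoea*, *apoa4a*, *apoa1a* and *apobb.1*, and in the other 6 genes at least 1 mutant library lies at or above a WT library.

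Against the WT SV, the members therefore fell into 2 kinds in the mutant SV by whether the libraries overlapped. For *apoea*, *apoa4a*, *apoa1a* and *apobb.1* both mutant libraries lay below both WT libraries, which 23.6% of all genes did, and the fitted log2 fold changes were -12.03 ± 0.69, -7.21 ± 0.92, -5.72 ± 1.24 and -4.43 ± 0.99 (SE). The other 6 genes overlapped, with fitted log2 fold changes of -2.90 ± 0.88 for *apoc2*, -1.52 ± 0.53 for *apoeb*, 0.25 ± 0.71 for *apoc1*, 0.96 ± 1.342 for *apoba*, 1.23 ± 1.30 for *apoa2* and 1.59 ± 1.39 for *apoa1b*. This is the comparison from which the genes were chosen, so no test is given. The median over the 10 genes was -2.21, and the median over all 19145 genes was -0.01. The size of these values depended on single libraries and on the fit. With a library left out *apoa1a* ranged from -7.58 to -2.28 and *apobb.1* from -5.73 to -1.82, the less negative values without replicate 2 of the mutant SV. Under the other settings *apoa1a* ranged from -7.55 to -3.36, *apobb.1* from -5.71 to -2.99, *apoc2* from -4.24 to -0.16 and *apoeb* from -2.45 to -0.12, the values nearest to 0 in fits without the RUVs factor. Single libraries also decided the direction of the second kind. Without replicate 1 of the mutant SV all 10 fitted values were negative, with -0.57 for *apoa1b*, and without replicate 2 only 4 were, with 3.65 for *apoa1b*.

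Markers of other tissues moved with these values. A list of 17 enterocyte genes, the absorbing cells of the intestine, summed to 67.9 and 6.96 CPM in the mutant SV against 1220 and 1277 CPM in the WT SV, and to at most 8.58 CPM elsewhere. All 17 genes were above 3 counts in both WT SV libraries, against 10 and 8 of them in the mutant SV, where *cdhr2*, *mogat2* and *slc6a19a.1* had no read. The acidic chitinase gene *chia.1* made up most of the WT SV sums, so the drop of the sum is largely that of this gene. It had 0.160 and 0.0481 CPM in the mutant SV against 937 and 893 CPM in the WT SV. The gene *fabp2*, for the intestinal fatty acid binding protein, had 3.11 and 0.481 CPM in the mutant SV against 115 and 138 CPM in the WT SV. The drop in this list went with that of *apoea*, *apoa4a*, *apoa1a* and *apobb.1*, and its part in their values was not tested.

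Hepatocyte genes moved differently. All 15 genes of a hepatocyte list were above 3 counts in both libraries of the mutant SV and of the WT SV, and they summed to 8855 and 2621 CPM in the mutant SV against 2990 and 2239 CPM in the WT SV. The retinol binding protein gene *rbp4* was also high outside the SV, with up to 7367 CPM in the BA, and without it, a step chosen after its values were seen, the sums were 7439 and 351 CPM in the mutant SV against 254 and 487 CPM in the WT SV. In the WT BA the sums without *rbp4* were 313 and 351 CPM, but only 9 and 10 of the 15 genes were above 3 counts. A similar sum in the BA and the WT SV thus does not stand for the same set of genes. *apoa1b*, *apoa2* and *apoc1* had at most 3.62 CPM in the BA. Atrial and ventricular libraries summed to at most 76.2 CPM. The transferrin gene *tfa* had 1239 and 149 CPM in the mutant SV against 108 and 129 CPM in the WT SV. The liver fatty acid binding protein gene *fabp10a* had 141 and 18.8 CPM in the mutant SV against 30.5 and 53.4 CPM in the WT SV, and the fibrinogen gene *fga* 967 and 16.4 CPM in the mutant SV against 7.73 and 26.8 CPM in the WT SV. As with *apoa1b*, *apoa2* and *apoc1*, replicate 1 of the mutant SV was above both WT libraries for *tfa*, *fabp10a* and *fga*. Replicate 2 was also above both WT libraries for *tfa*, but not for *fabp10a*, *fga* and these members. The part of liver RNA in the levels of these members was not tested.

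A list of 18 macrophage genes, a cell type that also makes ApoE, summed to 1616 and 1754 CPM in the mutant SV against 976 and 1273 CPM in the WT SV. All 18 genes were above 3 counts in these libraries. *apoeb* was 8.20-fold apart between the mutant SV libraries, and the part of macrophages in its level was not tested.

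**Figure D3:**
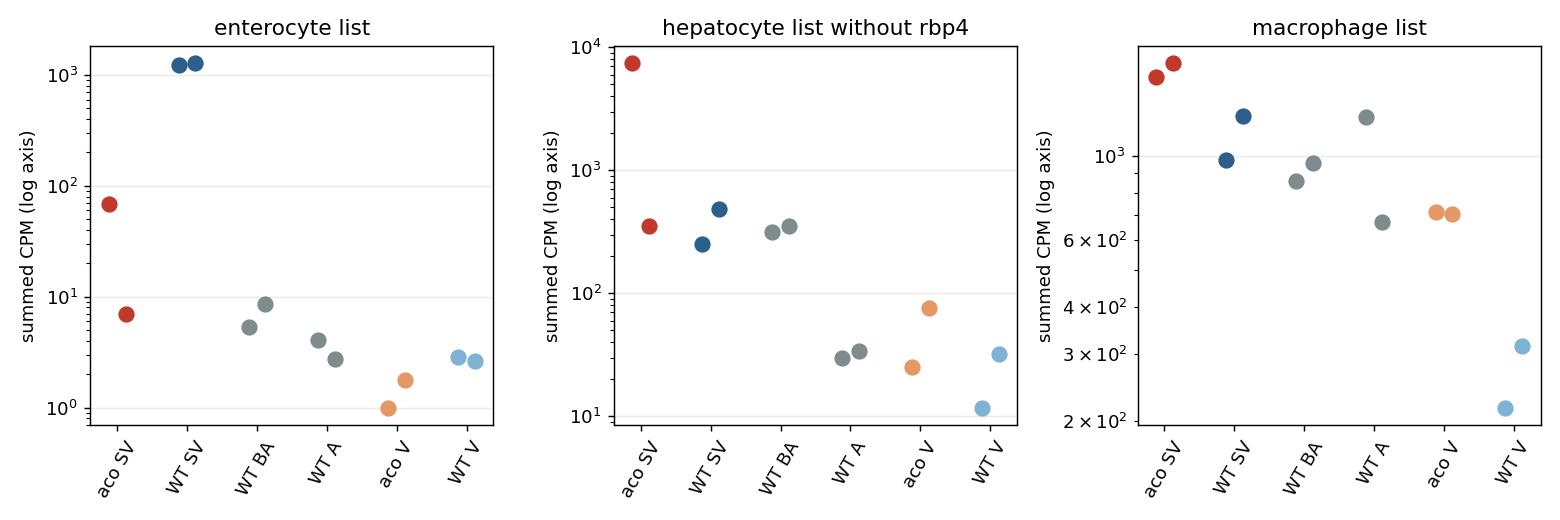
Summed CPM of the enterocyte list, the hepatocyte list without *rbp4* and the macrophage list in each library on log axes, with points for the 2 libraries of each mutant (aco) or WT group. The enterocyte sum stands at 1220 and 1277 CPM in the WT SV, most of it from *chia.1*, and at most 67.9 CPM in all other libraries. The hepatocyte sum is highest in replicate 1 of the mutant SV at 7439 CPM.

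The question whether the WT SV differs from the other tissues in these genes was tested for the 9 members other than *apoea* with edgeR's quasi-likelihood test, with p-values adjusted by Benjamini-Hochberg over all 19145 genes and genes with an adjusted p below 0.05 termed called. Against the WT BA, 8 of 9 members were called, each higher in the SV, where 9.37% of all genes were called higher. Against the atrium all 9 were called higher, beside 9.61% of all genes. Against the ventricle all 9 were called higher, beside 19.4% of all genes. Outside the SV, *apoa1a*, *apoa4a*, *apoc2*, *apobb.1* and *apoba* had too few reads to pass the filter on low counts. They passed it through the SV libraries, where they were high, so calls higher in the SV were favoured in advance. For these genes the calls, here and in the mutant, are a description rather than support. The median log2 fold changes of the 9 genes were 6.92, 8.26 and 8.89 against the BA, atrium and ventricle, and those of all genes were 0.06, 0.06 and 0.21. With *apoba* set to its lower bound, the median against the atrium was 7.89.

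The size of the difference varied between members. For *apoeb* the WT SV had 119 and 154 CPM against 6.36 and 22.7 CPM in the atrium, a log2 fold change of 3.03 ± 0.52 (SE; adjusted p = 0.00194, edgeR), the smallest of the 9 fitted values against the atrium. For *apoa1a* it had 356 and 444 CPM against 0.175 and 0.268 CPM in the atrium, a log2 fold change of 10.28 ± 1.33 (adjusted p = 0.000439, edgeR). Both genes were called against the atrium under every alternative tried. For *apoa1a* and *apoba*, which passed the filter on low counts through the SV libraries, the calls are a description rather than support. *apoba* was at the limit of the test. It was at least 28.8-fold higher in SV libraries of WT fish than in atrial ones, taking 3 counts over the group as the floor, with an adjusted p of 0.0379 (edgeR), which ranged from 0.00161 to 0.173 over the alternatives. Against the BA, where *apoba* had 0.489 and 0.0260 CPM, it did not pass (adjusted p = 0.354, edgeR).

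*apobb.1* had a single read in the WT BA, in replicate 1, and the ratio of the WT SV to the BA was 13346 with a counting interval of 2395 to 527155. *apoc2* had 2 reads in each library of the BA and atrium, and the ratio of the WT SV to the atrium was 741 (289 to 2719). Fitted fold changes of such genes depend on the prior count. Reads of *apobb.1* and *apoc2* outside the SV numbered at most 22 a library, whereas *apoeb* was measured with 63 or more reads in all 12.

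In the mutant, 8 of 9 members were called between the SV and the ventricle, each higher in the SV, where 9.86% of all genes were called higher. *apoa1b* had 2118 and 243 CPM in the mutant SV against 0.770 and 19.02 CPM in the mutant ventricle (log2 fold change 6.48 ± 1.57, adjusted p = 0.0131, edgeR). *apoeb* had 203 and 24.7 CPM in the mutant SV against 3.63 and 5.29 CPM in the mutant ventricle (3.56 ± 0.55, adjusted p = 0.000984, edgeR). The exception was *apoa4a*, with 2.9997 and 0.289 CPM in the mutant SV against 1.23 and 0.0822 CPM in the mutant ventricle, which overlapped (adjusted p = 0.769, edgeR). The count of called members fell to 5 when only these 2 groups were fitted without the RUVs factor, a factor for unwanted variation estimated from replicates, and also to 5 when the 4 libraries named above and the RUVs factor were both left out. *apoea* was at 8 and 2 reads in the mutant SV against 2 and 2 reads in the mutant ventricle, a ratio of 2.29 with a counting interval of 0.660 to 10.0002.

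**Figure D4:**
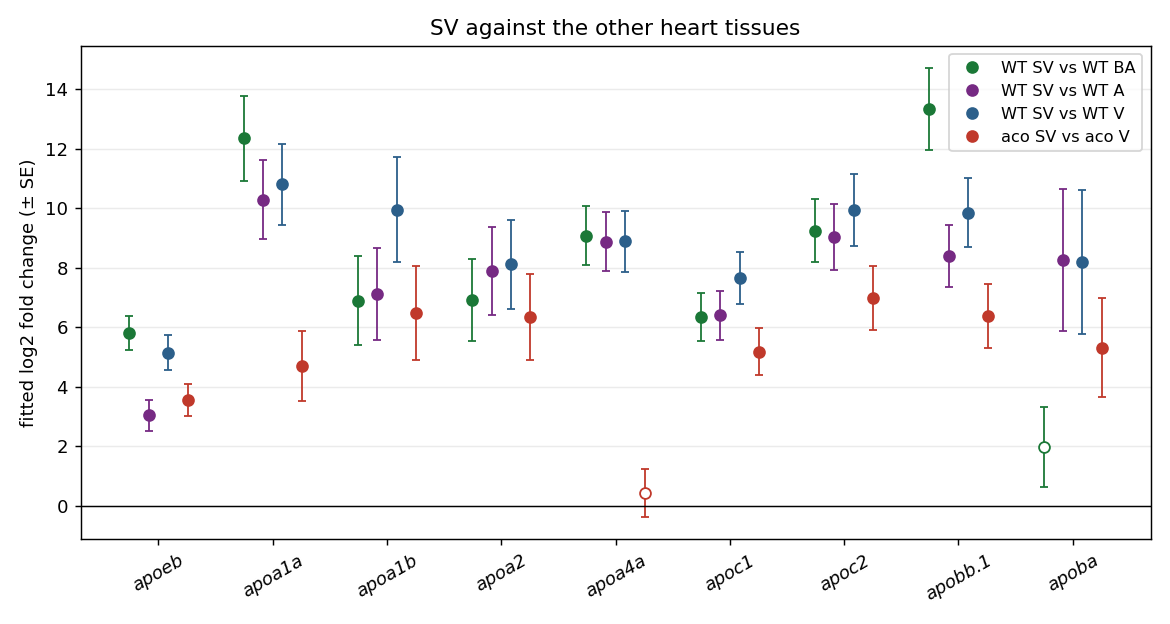
Fitted log2 fold change with its standard error (edgeR) for 9 members in 4 comparisons of the SV with another tissue, filled where the adjusted p was below 0.05 and open where it was not. The WT comparisons lie between 3.03 and 13.33 apart from *apoba* against the BA at 1.97, and *apoa4a* is near 0 in the mutant SV against the mutant ventricle.

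Between the mutant and WT ventricle none of the 10 members was called by edgeR, where 0.272% of all genes were called in either direction. At an unadjusted p below 0.05 there were 3 members. The share of all genes at that threshold was not computed, so this count only describes the members. DESeq2 with the same factor called 2, *apoa1b* and *apoc1*, beside 730 of all 19145 genes. *apoa1b* had 0.770 and 19.02 CPM in the mutant ventricle against 0.295 and 0.235 CPM in the WT ventricle (log2 fold change 5.07 ± 1.499, adjusted p = 0.174, edgeR). *apoc1* had 2.79 and 7.26 CPM in the mutant ventricle against 0.270 and 0.939 CPM in the WT ventricle (2.72 ± 0.75, adjusted p = 0.154, edgeR). For *apoa1b* and *apoc1* the libraries of the groups did not overlap, but for *apoa2*, with 0.554 and 11.3 CPM in the mutant ventricle against 0.516 and 0.822 CPM in the WT ventricle, they did (3.02 ± 1.24, adjusted p = 0.308, edgeR).

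Replicate 2 of the mutant ventricle carried the high value in all 3 genes. In the same library the hepatocyte list without *rbp4* summed to 76.2 CPM, against 25.2 CPM in replicate 1 of the mutant ventricle and 11.6 and 32.1 CPM in the WT ventricle, and *fabp10a* had 2.99 CPM against 0.0481 CPM in replicate 1. Without replicate 2 of the mutant ventricle the log2 fold change of *apoa1b* was 0.81 and that of *apoa2* was -0.94. That of *apoc1* stayed positive whichever library was left out, between 1.53 and 3.61. The part of liver RNA in these values was not tested.

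Among the other WT tissues, *apoeb* was the member with a called difference. The BA had 2.18 and 2.29 CPM of *apoeb* against 6.36 and 22.7 CPM in the atrium (log2 fold change -2.77 ± 0.52, adjusted p = 0.00326, edgeR), and it was the only one of 10 members called between these tissues, where 18.6% of all genes were called. The atrium was also higher than the ventricle, which had 1.55 and 4.11 CPM (2.11 ± 0.51, adjusted p = 0.0394, edgeR), again as the only one of 10 members, beside 5.11% of all genes. The call between the BA and the atrium was lost under 3 of the 21 alternatives, without the RUVs factor, with a replicate block in its place and without replicate 2 of the atrium, with an adjusted p of up to 0.102. The call against the ventricle was lost under 10 of the 21 alternatives, among them the fit without the RUVs factor and that without replicate 2 of the atrium, which gave a log2 fold change of 1.29, and its adjusted p ranged from 0.00224 to 0.324 over them. The macrophage list summed to 1266 and 669 CPM in the atrium, against 859 and 960 CPM in the BA and 216 and 315 CPM in the ventricle, and the part of macrophages in these *apoeb* values was not tested. Between the BA and the ventricle edgeR called none of the 10 members, where 26.7% of all genes were called. There 1 member had an unadjusted p below 0.05, a threshold for which the share of all genes was not computed. DESeq2 called 1 member, beside 6076 of all 19145 genes.

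The order of the 6 groups was compared by the spread of their libraries. In the mean *apoea*, *apoeb*, *apoa1a*, *apoa4a*, *apoc2* and *apobb.1* stood highest in the WT SV, and *apoa1b*, *apoa2*, *apoc1* and *apoba* in the mutant SV. The SV groups overlapped with each other for 6 of the 10 members, and both SV groups lay above all other groups without overlap for *apoeb*, *apoa1a*, *apoa1b*, *apoa2*, *apoc1*, *apoc2* and *apobb.1*. The shares of all genes with these orders, or with those below, were not computed, so the orders only describe the members. The 14.2% of all genes given above is for another condition, the WT SV alone above every library outside the SV. Outside the SV, neighbours in the order mostly overlapped. The atrium stood above the next group without overlap for *apoeb*, *apobb.1*, *apoa1b* and *apoc1*, as did the mutant ventricle for *apoc1* and the BA for *apoa2*.

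Across the 12 libraries the members correlated with each other to different degrees, which is given as a description since libraries of a group share their tissue. On log2 CPM, *apoa1b* and *apoa2* had Pearson's r = 0.98, *apoa1b* and *apoc1* r = 0.97, and *apoa1a* and *apobb.1* r = 0.98. The 2 ApoE genes had r = 0.69, and *apoea* had r = 0.90 with *apoa4a* and r = 0.45 with *apoba*. By the same measure the nearest other genes were then sought, with the members and all genes with provisional names left out. Among the remaining genes the 5 nearest to *apoea* were *sult3st2*, *cdhr2*, *cmasb*, *nkpd1* and *faah2b* with r = 0.99 each, and none of them had a read outside the 2 WT SV libraries. Among the same remaining genes the nearest to *apoa1b* were *serpina1l*, *fgg*, *leg1.1*, *leg1.2* and *itih3b* with r from 0.96 to 0.97. These include a fibrinogen chain gene and were highest in replicate 1 of the mutant SV, where *fgg* had 814 CPM against 36.1 CPM in replicate 2, with 13.6 and 60.7 CPM in the WT SV. Of these remaining genes the nearest to *apoeb* were *oclnb*, *tmem238b*, *ceacam1*, *vsig8b* and *b4galnt3b*, with r from 0.96 to 0.97 but levels of at most 1.46 CPM.

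Several members lie side by side in the genome. In the order of protein-coding genes of the GRCz12tu annotation, another assembly than the one the authors used, *apoa4b.2*, *apoeb*, *apoc1*, *apoc4*, *apoa2* and *apoc2* follow each other, and *apoa4a* is next to *apoea*. Neighbours did not share 1 pattern. *apoa4b.2* had 2.04 and 0.385 CPM in the mutant SV against 347 and 381 CPM in the WT SV, while *apoeb* beside it had 203 and 24.7 CPM in the mutant SV against 119 and 154 CPM in the WT SV. *apoea* and *apoa4a*, in contrast, were both lower in both mutant SV libraries.

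Other apolipoproteins were taken from a list of 16, of which 14 were in the table. Between the WT SV and the atrium, 6 were called higher and 3 lower, beside 9.61% and 10.9% of all genes. The ApoA-IV copies *apoa4b.1* and *apoa4b.3* were higher, with 289 and 386 CPM in the WT SV against 1.25 and 0.321 CPM in the atrium for *apoa4b.1* (log2 fold change 9.35 ± 0.65, adjusted p = 3.1e-05, edgeR). For *apoa4b.3* the WT SV had 72.9 and 52.0 CPM, with 0 and 2 reads in the atrium. The mutant SV had 1.28 and 3.68 CPM of *apoa4b.1* and 1.69 and 0.0481 CPM of *apoa4b.3*, and their fold changes against the WT SV were not tested. Among the called lower were *apooa* and *apool*, which despite their names encode mitochondrial inner membrane proteins. Only uniquely aligned reads were counted, so the values of gene copies that share sequence, which may include those of *apoa4b*, are uncertain.

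The genes that load, receive and process lipoproteins were taken from 6 lists that also held these apolipoproteins, with 119 genes tested. Between the WT SV and the atrium, 38 were called higher and 12 lower, beside 9.61% and 10.9% of all genes, and their median log2 fold change was 0.92 against 0.06 for all genes. Listed genes with few or no atrial reads passed the filter on low counts through other libraries, which include those of the SV. Calls higher in the SV were thus favoured in advance for such genes. In all 6 lists these calls are a description rather than support. Assembly genes had the largest share called higher, with 11 of 22, and 2 were called lower. Among these 11, *fabp2*, *fabp1b.1* and *mogat2* also belong to the enterocyte list and *fabp10a* to the hepatocyte list. *fabp2* had 115 and 138 CPM in the WT SV against 0.275 and 0.187 CPM in the atrium (log2 fold change 8.62 ± 0.67, adjusted p = 5.2e-05, edgeR), and *pla2g12b*, which in zebrafish is needed to load triglyceride onto ApoB particles, had 15.6 and 12.1 CPM in the WT SV against 0 and 1 reads in the atrium. Of 24 receptors 4 were called higher and 2 lower. The fatty acid receptor gene *cd36* had 20.6 and 23.7 CPM in the WT SV against 0 and 1 reads in the atrium, and the ApoE receptor gene *lrp1aa* had 63.2 and 55.4 CPM in the WT SV against 7.01 and 6.56 CPM in the atrium (3.01 ± 0.37, adjusted p = 0.000349, edgeR).

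In the WT SV against the atrium, 9.61% of all genes were called higher and 10.9% lower. Of 12 lipase and lipid transfer genes 2 were called higher and 1 lower in this comparison. The phospholipid transfer protein gene *pltp* had 2.45 and 2.21 CPM in the WT SV against 0.150 and 0.482 CPM in the atrium (2.63 ± 0.74, adjusted p = 0.0281, edgeR), and the hepatic lipase gene *lipca* had 0.617 and 1.09 CPM in the WT SV against 0 and 1 reads in the atrium. Of 18 sterol genes 6 were called higher and 0 lower, among them *npc1l1*, which takes up cholesterol in the intestine, with 5.51 and 4.12 CPM in the WT SV against 2 and 2 reads in the atrium, and the cholesterol hydroxylase gene *ch25h* with 11.6 and 5.89 CPM in the WT SV against 2.704 and 1.18 CPM in the atrium. Of 29 regulators 9 were called higher and 4 lower. The coactivator of mitochondrial genes *ppargc1a* was lower, with 0.457 and 1.07 CPM in the WT SV against 22.1 and 37.6 CPM in the atrium (-5.59 ± 0.59, adjusted p = 0.000173, edgeR), and *foxa3*, a liver and gut transcription factor gene, was higher with 7.73 and 3.05 CPM in the WT SV against 0 and 1 reads in the atrium.

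Between the mutant and WT ventricle 1 of the 119 genes was called, beside 0.272% of all genes. It was *lipg*, the endothelial lipase gene, with 3.27 and 2.60 CPM in the mutant ventricle against 13.3 and 43.8 CPM in the WT ventricle (log2 fold change -3.54 ± 0.62, adjusted p = 0.0496, edgeR). The call was lost under most alternatives. An unadjusted p below 0.05 was found for 24 of the 119 genes, but the share of all genes at that threshold was not computed. DESeq2 called 8 of the 119, beside 730 of all 19145 genes. The gene with the smallest p in each of the other lists was *sort1a*, *abcg1*, *apof*, *ppargc1a* or *dgat2*, and none of them passed. Of these the sortilin gene *sort1a* had 11.6 and 13.6 CPM in the mutant ventricle against 3.64 and 3.93 CPM in the WT ventricle (1.85 ± 0.38, adjusted p = 0.0668, edgeR).

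In the mutant SV against the WT SV the same lists are described without a test, since this is the comparison that chose *apoea*. Among genes with a mean of at least 1 CPM in either group, the largest fitted changes of the assembly genes were those of *fabp1b.1*, with 0 and 1 reads in the mutant SV against 1023 and 506 reads in the WT SV, and of *mogat2*, with 0 and 0 reads in the mutant SV against 95 and 83 reads in the WT SV. Among receptors they were those of *cd36*, with 0.114 and 0.120 CPM in the mutant SV against 20.6 and 23.7 CPM in the WT SV, and *lrp1bb*, with 0.275 and 0.361 CPM in the mutant SV against 2.24 and 2.38 CPM in the WT SV. Among sterol genes they were those of *cyp7a1*, the rate-limiting enzyme of bile acid synthesis, with 0 and 2 reads in the mutant SV against 9 and 89 reads in the WT SV, and *npc1l1*, with 0.206 and 0.0963 CPM in the mutant SV against 5.51 and 4.12 CPM in the WT SV. Among regulators they were those of the nuclear receptor genes *hnf4a*, with 0.412 and 0.120 CPM in the mutant SV against 2.36 and 3.68 CPM in the WT SV, and *hnf4b*, with 2.02 and 0.120 CPM in the mutant SV against 5.28 and 3.17 CPM in the WT SV. Lipases went the other way in some libraries, as *lipca* had 21.3 and 1.13 CPM in the mutant SV against 0.617 and 1.09 CPM in the WT SV, and *lpl*, which ApoC-II activates, had 18.6 and 70.9 CPM in the mutant SV against 36.2 and 16.5 CPM in the WT SV. The median fitted log2 fold change of the 119 genes was -0.10, and that of all genes was -0.01.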

How the data were processed

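Per the methods, adapters were removed by cutadapt and reads mapped to danRer11 using STAR, and the authors obtained counts of uniquely mapped reads per gene from featureCounts (Subread). Single-end and paired-end libraries of several batches were all treated as single-end, and the batch of each library is not given in the sources used here. The deposited counts are whole numbers without stated normalization, and the deposited FPKM are those counts per gene length and library factor, as checked on the values. The table also holds the authors' fold changes, p-values and group means, which were not used. Groups came from titles and genotype labels. For the mutant libraries, other labels read WT.

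Counts of all 12 libraries were fitted with edgeR 4.0.16 in R 4.3.3 after edgeR's expression filter, TMM and 1 RUVs factor. The factor was most extreme in the 4 libraries with few counts of 2. It was 2.07 and 1.09 in replicate 1 of the mutant SV and ventricle, and -1.34 and -1.72 in replicate 1 of the WT atrium and ventricle. In the other libraries it lay between -0.479 and 0.384. Tests were two-sided, and standard errors were derived from the quasi-likelihood F. DESeq2 1.42.0 was an alternative, with the others in the closing section. The method was tested on simulated counts of the WT SV and atrium, with changes placed only in genes with higher counts. That test does not cover members near the floor. The labels do not say that libraries came from separate fish batches, so p-values measure the spread between libraries. Named genes were the 10 members and the called or most changed 2 genes of each list. The 5 genes most correlated with *apoea*, *apoeb* and *apoa1b* were also named, with members and provisional gene names left out. Members and lists were chosen with earlier results of these data known, and *fabp10a*, *fga*, *cdhr2*, *slc6a19a.1*, *apoa4b.2*, *apooa* and *apool* were named after their values were seen.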

Additional observations from a re-analysis of the deposited data

How the results depend on the processing

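Counts of members called between the SV and another tissue include members that passed the filter on low counts through the SV libraries. Calls of those members are a description rather than support. The members called were 8 between the WT SV and BA under every alternative, 8 or 9 between the WT SV and ventricle, and 7 to 9 between the WT SV and atrium. Between the mutant SV and ventricle they were 5 with these 2 groups alone and 5 without the 4 libraries with few counts of 2, an alternative chosen after seeing the data in which the RUVs factor was left out too, here and below, and 7 to 8 with a library left out. Between the mutant and WT ventricle DESeq2 called 2, and leaving out a library gave 0 to 1. Between the BA and atrium the count was 0 without the RUVs factor, 2 with DESeq2, 2 with no filter, 2 without the 4 libraries and 0 to 2 with a library left out. Between the BA and ventricle it was 1 with DESeq2, 1 with the 2 groups alone and 0 to 2 with a library left out. Between the atrium and ventricle it was 0 without the factor, with DESeq2 size factors and with the 2 groups alone.

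The number of all genes called also changed with the setting. DESeq2 called 730 of 19145 genes between the ventricles, 4639 between the BA and atrium and 6076 between the BA and ventricle. With the 2 groups alone, 2269 of 17027 were called between the mutant SV and ventricle and 3674 of 16030 between the BA and ventricle. With no filter, 3485 of 22158 were called between the BA and atrium. Without the RUVs factor, 2966 of 19145 were called between the BA and atrium and 496 between the atrium and ventricle. Between the atrium and ventricle, 928 of 19145 were called with DESeq2 size factors and 554 of 16032 with the 2 groups alone. The deviations of same-numbered libraries had correlations from -0.50 to 0.18, with 3 of 15 above 0.1, so the replicate numbers were not taken as pairs. With a replicate block in place of the factor, the members called between the BA and atrium and between the atrium and ventricle were 0 each, the genes of the lists called were 29 between the WT SV and atrium and 0 between the mutant and WT ventricle. With the replicate block beside the factor, the members called between the atrium and ventricle were 0, as were the genes of the lists between the ventricles. Of all 19145 genes, the block in place of the factor called 2392 between the BA and atrium and 196 between the atrium and ventricle. It called 2423 between the WT SV and atrium and 0 between the ventricles. Beside the factor it called 397 of all genes between the atrium and ventricle and 8 between the ventricles.

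Of the lists, 28 genes were called between the WT SV and atrium without the 4 libraries and the factor, and 29 to 53 with a library left out. Between the mutant and WT ventricle 8 were called with DESeq2. The count was 0 without the factor, with a mean CPM of at least 1, with DESeq2 size factors and with the 2 groups alone. Of all genes, these settings called 4 of 19145, 37 of 13863, 28 of 19145 and 0 of 15926. Few or no genes at all were called there, so these counts of 0 are no result about the lists or the members. The members with a negative fitted value in the mutant against the WT SV were 4 to 10 of 10 with a library left out. The log2 fold change of *apoa2* between the mutant and WT ventricle was -0.94 without replicate 2 of the mutant ventricle and 3.79 without replicate 1. A lone library was assumed to vary like the other groups. Where the cause of a change is not given by fewer libraries or genes, the cause was not tested. With 2 libraries a group, single libraries decided several values, and low counts limit *apoba*, *apoc2* and *apobb.1* outside the SV.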

Other observations

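A list of 14 exocrine pancreas genes summed to 18.4 and 23.4 CPM in the mutant SV against 416 and 39.8 CPM in the WT SV, and all 14 were above 3 counts in both WT SV libraries, against 4 to 8 in the other libraries, whose sums lay between 5.98 and 328 CPM. Of the WT SV libraries, replicate 1 was also the higher for *apoa4a* (2.67-fold), *apoea* (1.58-fold) and *apobb.1* (1.30-fold), and replicate 2 was the higher for the other members.

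The sterol exporter gene *abcg1* was higher in both mutant SV libraries, unlike *apoea*, with 17.3 and 16.2 CPM in the mutant SV against 0.366 and 0.955 CPM in the WT SV. Its SV values were named after they were seen and are not tested. In the ventricle it had 2.91 and 1.53 CPM in the mutant against 0.0983 and 0.176 CPM in WT fish, which did not pass (adjusted p = 0.0993, edgeR).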
